A study of Homo sapiens with 4 samples.

Results

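The 9 genes described here encode histone variants, most of them made outside the bulk of DNA replication. They are the H2A variants H2AFX (H2A.X), H2AFZ and H2AFV (the 2 genes of H2A.Z), and H2AFY and H2AFY2 (macroH2A). The others are the H3 variant genes H3F3A and H3F3B and the linker histone genes H1F0 and H1FX. All 9 were chosen by symbol from the 40205 genes of the expression table, and all were found. Of these, 8 reached 1 RPKM (reads scaled to the length of the gene model and the size of the library) in at least 1 library and entered the tests with 16098 genes in all, while H2AFY2 did not. The study measured poly(A) RNA by sequencing in U87MG and U251, established human glioblastoma cell lines. Each line was infected at a multiplicity of infection of 20 with lentivirus carrying either a control hairpin (sh-NC, the libraries labelled WT) or a hairpin against the splicing factor SRSF1 (sh-SRSF1, labelled KD), and was selected with puromycin for 1 week. Both arms therefore carry a lentivirus and a selected population of cells. Each line and arm has 1 library, 4 in all, so the lines are the only replication of the knockdown.

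Canonical histones are encoded by clustered genes that are read in S phase and whose mRNAs end in a stem-loop in place of a poly(A) tail. Variant histones come from single genes with polyadenylated mRNAs, most of them with introns, and are made throughout the cell cycle. H2A.Z marks promoters and is exchanged by the SRCAP and p400/TIP60 remodellers, H3.3 is placed at active genes by HIRA and at telomeres and repeats by DAXX and ATRX, and H2A.X is the histone that is phosphorylated beside DNA breaks. MacroH2A is linked to silent chromatin, and H1.0 is the linker histone that accumulates in cells that differentiate or stop dividing. SRSF1 is an SR protein that binds exons and helps to define splice sites.

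H2AFX is the member that stands between both classes, since its mRNA can end at a stem-loop or at a poly(A) tail. Its gene has no intron, which also holds for H1F0 and H1FX. The search of the members' annotated transcripts for the histone stem-loop (a stem of 6 base pairs beginning with GG, around a loop of 4 bases beginning with T) found it in H2AFX alone. It is shown because a poly(A) library sees only the transcripts that run past it, and the stem and loop are in capitals. In the longest annotated H2AFX transcript 1044 bases follow it.
H2AFX stem-loop: acaaaGGCCCTTTTAAGGGCCaccacc

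The level of SRSF1 itself was checked first. SRSF1 was at 88.3 RPKM in control and 14.6 RPKM in knockdown U87MG cells, and at 109.2 and 15.8 RPKM in U251. The knockdown libraries were low in both lines and did not overlap the control libraries (limma estimate of knockdown minus control -2.62 ± 0.16 (SE) on the log2(RPKM + 1) scale, n = 2 lines, adjusted p = 0.0022). Libraries held between 25099799 and 27953878 reads, so that 1 read in a gene model of 1 kilobase was worth 0.0358 to 0.0398 RPKM. GFAP and S100B, which mark astrocytes, were at no more than 1.47 RPKM in any library. SOX2, a neural stem cell factor, had 0.121 and 0.046 RPKM in U87MG but 47.9 and 49.3 RPKM in U251. NES differed the same way, with 1.79 and 1.29 RPKM in U87MG and 61.1 and 83.7 RPKM in U251. OLIG2 went the other way, with 0.936 and 2.46 RPKM in U87MG and 0.0146 and 0.0263 RPKM in U251. CD44 lay between 123.7 and 184.3 RPKM. VIM, a mesenchymal filament gene, lay between 1064.6 and 1675.1 RPKM, and the markers of leukocytes and of endothelium summed to at most 0.302 and 0.498 RPKM, with CD3E, a T cell marker, at 0 in every library. The epithelial markers summed to between 1.61 and 5.88 RPKM, mostly KRT8, and the neuronal markers to between 1.53 and 2.54 RPKM, mostly SNAP25, with RBFOX3 at 0.

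Knockdown libraries held less mRNA of most variant histones, and H2A.Z stood first among them. Of the 8 variants tested, 7 had a lower value in the knockdown than in the control library of both lines, against 36.5% of all genes tested, and the exception was H1F0. H2AFZ was the only variant that passed the test across the lines: it fell, and 1 of 8 variants called lower compares with 2.61% of all genes, while 0 of 8 were called higher (1.16% of all genes). By unadjusted limma p-values under 0.05, 4 of 8 variants were lower (12.8% of all genes), namely H2AFZ, H1FX, H2AFV and H2AFX, and 0 of 8 were higher (8.29% of all genes). The median log2 ratio of the 8 variants was -0.47 in U87MG and -0.46 in U251, beside -0.05 and 0.0 for all genes tested. On the log2(RPKM + 1) scale, 1 variant, H2AFZ, was lower by at least 2-fold in U87MG (3.58% of all genes) and 0 were in U251 (1.71% of all genes), with H2AFX at -0.99 in U87MG just short of it. Of 20 proliferation genes 13 fell in the same comparison, and their part in the values of the variants was not tested; in bulk RNA fewer cells of a type and less RNA per cell cannot be told apart. The lines differed as well: 7 of 8 variants were called lower in U87MG than in U251 (27.0% of all genes), and 0 were called higher in U87MG (21.6%), nor were any by the unadjusted p (24.9%). H3F3A is among the 7 by its own row, whose level is uncertain because most reads lay on its copies.

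**Figure D1:**
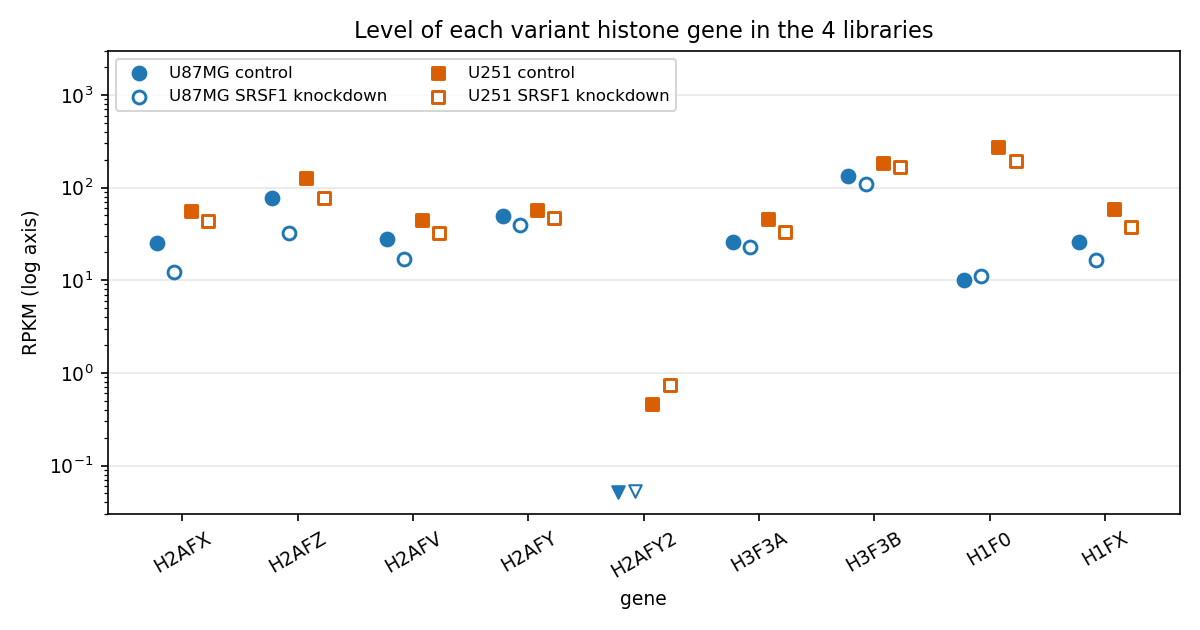
RPKM (log axis) of the 9 variant histone genes in the U87MG libraries (circles) and the U251 libraries (squares), with control libraries filled and knockdown libraries open. Triangles stand for the 2 libraries without an H2AFY2 read and are drawn at the value of 3 reads; H1F0 shows the widest gap between the lines among the 8 genes with reads in every library, from 10.1 to 273.9 RPKM in the control libraries.

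H2A.Z is encoded by H2AFZ and H2AFV, whose proteins differ at a few residues. The H2AFZ gene lies on chromosome 4 (chr4:99948086-99950388, reverse strand, 5 exons), and H2AFV on chromosome 7 (chr7:44826791-44848083, reverse strand). All positions are those of GRCh38, as the annotation used here gives them, whereas the authors aligned to hg19. H2AFZ was at 76.8 RPKM in control and 32.6 RPKM in knockdown U87MG cells, and at 126.2 and 77.5 RPKM in U251. Within each line the knockdown library was the lower one, and the knockdown library of U251 was level with the control library of U87MG. These values rest on 2498, 1046, 3915 and 2678 reads, and the knockdown to control ratio was 0.424 (95% counting interval 0.394 to 0.456) in U87MG and 0.614 (0.585 to 0.645) in U251. Such intervals cover counting error only. On the log2(RPKM + 1) scale H2AFZ fell by 0.95 ± 0.18 (SE, n = 2 lines, limma adjusted p = 0.036). The call was lost in 4 of 6 alternative fits: with the libraries rescaled by a trimmed mean (adjusted p = 0.068), without the variance trend (0.067), without the filter on low genes (0.42) and without the cell line in the model (1). With quantile normalization it was 0.016 and with a pseudocount of 0.1 it was 0.037.

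H2AFV was at 27.6 RPKM (control) and 17.0 RPKM (knockdown) among U87MG libraries, and at 44.7 and 32.0 RPKM among U251 libraries. It was lower with the knockdown in both lines, with ratios of 0.616 (0.579 to 0.655) and 0.716 (0.684 to 0.749), but the difference did not pass the test (-0.57 ± 0.17, limma adjusted p = 0.11). RPKM is per length, so both genes can be set side by side. H2AFZ gave 73.6% of the summed H2A.Z RPKM in control and 65.7% in knockdown U87MG cells, and 73.8% and 70.8% in U251. By RPKM, H2AFZ was the larger source of H2A.Z mRNA in each library, and its share was lower with the knockdown in both lines. This order depends on the gene models, of 1236 bases for H2AFZ and 3755 for H2AFV. In reads H2AFV was the larger in each library (2728 and 1659 in U87MG, 4212 and 3358 in U251).

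Coding sequences show how far the reads of such gene pairs can be told apart. The first 90 coding bases of both H2A.Z genes are given, with capitals where H2AFV differs from H2AFZ. There are 19 such bases here and 76 in the 387 bases of the whole coding sequence, an identity of 80.4%.
H2AFZ: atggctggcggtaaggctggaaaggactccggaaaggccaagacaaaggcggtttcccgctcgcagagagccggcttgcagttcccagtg
H2AFV: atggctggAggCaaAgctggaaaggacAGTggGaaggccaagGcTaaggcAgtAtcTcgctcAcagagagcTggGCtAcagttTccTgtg

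H2AFX lies on chromosome 11 (chr11:119093854-119095467, reverse strand, 1 exon). Its level was 25.2 RPKM in control and 12.2 RPKM in knockdown U87MG cells, and 55.3 and 43.8 RPKM in U251. Both U251 libraries were above both U87MG libraries. The knockdown library was lower in both lines, with a ratio of 0.484 (0.435 to 0.539) in U87MG and 0.793 (0.746 to 0.843) in U251. These counting intervals do not overlap, but with 1 library per line and arm the difference between the lines was not tested. Across the lines the estimate was -0.66 ± 0.2 (limma adjusted p = 0.12), so H2AFX did not pass the test.

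Upstream sequences are shown for H2AFX, H2AFZ and H2AFV, the core H2A variants with the 3 lowest ratios in U87MG. The stretches are the 250 bases before the RefSeq start site (GRCh38.p14, reverse strand in each case), at chr11:119095466-119095715, chr4:99950276-99950525 and chr7:44848088-44848337. Capitals mark CCAAT, the box bound by NF-Y, and TTTGAA, the core of the cell cycle homology region, on either strand (ATTGG and TTCAAA on the other); no overlap between the 2 motifs occurred here. A match is a description of the letters and not a bound site.
H2AFX upstream: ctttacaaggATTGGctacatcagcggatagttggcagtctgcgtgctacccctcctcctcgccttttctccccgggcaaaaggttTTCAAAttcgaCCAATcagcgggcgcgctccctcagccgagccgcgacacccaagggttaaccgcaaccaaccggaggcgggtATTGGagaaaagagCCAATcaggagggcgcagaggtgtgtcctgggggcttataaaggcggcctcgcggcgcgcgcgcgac
H2AFZ upstream: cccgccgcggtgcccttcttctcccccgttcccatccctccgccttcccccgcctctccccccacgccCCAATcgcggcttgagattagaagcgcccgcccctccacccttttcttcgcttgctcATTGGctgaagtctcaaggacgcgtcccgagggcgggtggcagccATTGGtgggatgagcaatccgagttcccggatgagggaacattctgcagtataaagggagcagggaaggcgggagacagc
H2AFV upstream: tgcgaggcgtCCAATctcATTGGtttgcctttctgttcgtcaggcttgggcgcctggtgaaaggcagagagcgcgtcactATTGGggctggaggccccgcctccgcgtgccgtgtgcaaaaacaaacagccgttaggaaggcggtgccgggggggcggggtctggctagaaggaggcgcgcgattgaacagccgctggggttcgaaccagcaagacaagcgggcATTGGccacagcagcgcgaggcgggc
CCAAT occurs 4 times in the H2AFX stretch, 3 times in that of H2AFZ and 4 times in that of H2AFV, and TTTGAA once, in H2AFX. The table held promoters for 8 of the 9 members (12 start sites), each as a 300-base window that runs 50 bases past the start. H3F3A has 4 of these windows and H2AFY has 2, so matches are counted over windows. CCAAT was in 8 of the 12 windows, and 34.6% of the 35116 promoters of that length hold it. TTTGAA was in 2 (those of H2AFX and H2AFZ, in the latter past the start), beside 15.2% of all promoters. TTTNNCGC, an E2F-like sequence, was in 2 (of H2AFY and H3F3B), beside 6.89%. The GC box GGGCGG was in 8 windows (45.0% of all promoters) and the TATA box TATAAA in 4 (11.5%).

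MacroH2A carries a large non-histone domain behind its histone fold. H2AFY on chromosome 5 (chr5:135333900-135399914, reverse strand) encodes macroH2A1 and was at 49.4 (control) and 39.4 RPKM (knockdown) for U87MG and at 57.2 and 46.7 RPKM for U251. The libraries of both lines overlapped, and the knockdown library was the lower in each, with ratios of 0.798 (0.763 to 0.834) and 0.817 (0.785 to 0.851). The difference did not pass the test (-0.3 ± 0.16, limma adjusted p = 0.32). Splicing of a pair of mutually exclusive exons makes 2 macroH2A1 forms, and a value per gene does not separate them. H2AFY2 on chromosome 10 (chr10:70052796-70112280, forward strand) encodes macroH2A2. It had no read in either U87MG library, which allows up to 0.0524 RPKM in control and 0.053 RPKM in knockdown cells (3 reads per library), and 25 and 45 reads in U251, or 0.457 and 0.739 RPKM. The U251 value of H2AFY2 was thus 8.73-fold the 3-read limit of U87MG in the controls and 13.9-fold in the knockdown libraries. These folds leave out the counting error of the U251 reads, so they are not lower bounds. Its ratio in U251 was 1.62 (0.97 to 2.75), an interval that holds 1. H2AFY gave 98.4% to 100.0% of macroH2A RPKM in the 4 libraries.

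H3.3 is encoded by H3F3A and H3F3B, which make the same protein from different coding sequences. H3F3B on chromosome 17 (chr17:75776434-75785893, reverse strand) was the highest of the core histone variants in every library. It was at 132.4 RPKM with the control and 108.6 RPKM with the SRSF1 hairpin in U87MG, and correspondingly at 184.1 and 168.4 RPKM in U251. The knockdown values were slightly lower in both lines, with ratios of 0.821 (0.796 to 0.846) and 0.915 (0.892 to 0.937), and did not pass the test (-0.21 ± 0.15, limma adjusted p = 0.48). H3F3A on chromosome 1 (chr1:226061851-226072001, forward strand) was at 25.7 RPKM (control) and 22.8 RPKM (knockdown) among U87MG libraries, and at 46.1 and 33.3 RPKM among U251 libraries. Its ratios were 0.888 (0.761 to 1.04) and 0.723 (0.641 to 0.815), and it did not pass the test (-0.31 ± 0.17, limma adjusted p = 0.34). In its own row H3F3A gave 16.3% and 17.4% of the summed H3.3 RPKM in U87MG, and 20.0% and 16.5% in U251.

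**Figure D2:**
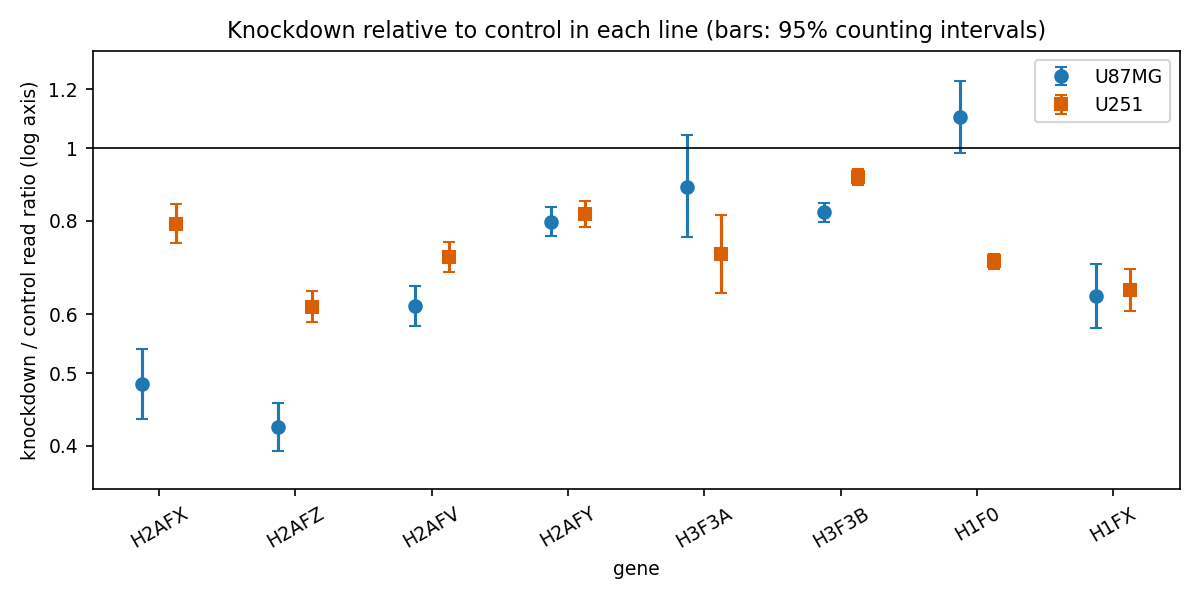
Knockdown to control ratio of reads per library size (log axis) for the 8 variant genes tested, in U87MG (circles) and U251 (squares), with 95% counting intervals. H2AFZ is lowest in both lines at 0.424 and 0.614, and H1F0 in U87MG, at 1.1, is the only value above 1.

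The sequence of H3F3A is shared with a processed copy of the gene. The coding bases of H3F3AP4, a pseudogene, are the same as those of H3F3A over all 411 positions, and H3F3AP6 differs at 3 of them. H3F3B differs from H3F3A at 88 of 411 bases (78.6% identical), and the first 90 bases are given with capitals where H3F3B differs (21 bases).
H3F3A: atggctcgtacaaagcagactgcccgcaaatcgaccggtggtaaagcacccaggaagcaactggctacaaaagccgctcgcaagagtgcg
H3F3B: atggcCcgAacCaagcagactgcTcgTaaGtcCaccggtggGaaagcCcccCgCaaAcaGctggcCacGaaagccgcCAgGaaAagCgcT
The row of H3F3AP4 held more reads than that of H3F3A. H3F3AP4 was at 121.0 (control) and 95.1 RPKM (knockdown) for U87MG and at 118.6 and 91.4 RPKM for U251. Its ratios of 0.786 (0.747 to 0.827) and 0.771 (0.732 to 0.812) were close to each other, and the difference did not pass the test (-0.36 ± 0.15, limma adjusted p = 0.23). Over the 6 pseudogene rows named after H3F3A, 84.5% to 91.0% of the reads of gene and copies together lay on copies, a share that depends on recovered read numbers of H3F3A, which are the smallest that fit. The treatment of reads with several places is not given in the sources used here; the levels of H3F3A and its share of H3.3 are uncertain. With gene and copies summed, the H3F3A ratio was 0.803 (0.766 to 0.842) in U87MG and 0.765 (0.731 to 0.801) in U251. Summed in this way, both lines gave nearly the same ratio, whereas the gene's own row gave 0.888 and 0.723.

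The other copies moved their genes' ratios little. For H2AFZ, the pseudogene rows held 25.6% to 27.6% of the reads, and the ratio of gene and copies together was 0.436 (0.409 to 0.463) in U87MG and 0.609 (0.584 to 0.636) in U251. H2AFZP1 was at 34.6 RPKM with the control and 14.4 RPKM with the SRSF1 hairpin in U87MG, and correspondingly at 51.4 and 29.0 RPKM in U251, and it fell (-1.01 ± 0.18, limma adjusted p = 0.029). H2AFZP2 fell as well (-0.81 ± 0.17, adjusted p = 0.045). The H2AFV copy H2AFVP1 was at 11.1 RPKM (control) and 5.08 RPKM (knockdown) among U87MG libraries, and at 22.5 and 10.6 RPKM among U251 libraries, and it fell (-1.0 ± 0.16, adjusted p = 0.024), although H2AFV itself did not pass. With trimmed-mean rescaling these 3 copies no longer passed (adjusted p 0.058, 0.075 and 0.053). For H3F3B, the rows of its copies, nearly all reads of H3F3C, held 15.4% to 16.0% of the reads of gene and copies together. The summed ratio was 0.82 in U87MG and 0.92 in U251. H3F3C, annotated as a gene for H3.5, was at 63.2 (control) and 51.7 RPKM (knockdown) for U87MG and at 85.3 and 81.4 RPKM for U251, and 378 of the 2675 words of 31 bases in the longest H3F3B transcript also occur in it. No such word of H1F0 or H2AFY2 occurs in another annotated gene. H1FX shares 19.6% of its words with its antisense gene H1FX-AS1, which was at no more than 0.927 RPKM, and H2AFY shares 25.2% with the genes C5orf66 and AC026691.1 on the opposite strand.

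**Figure D3:**
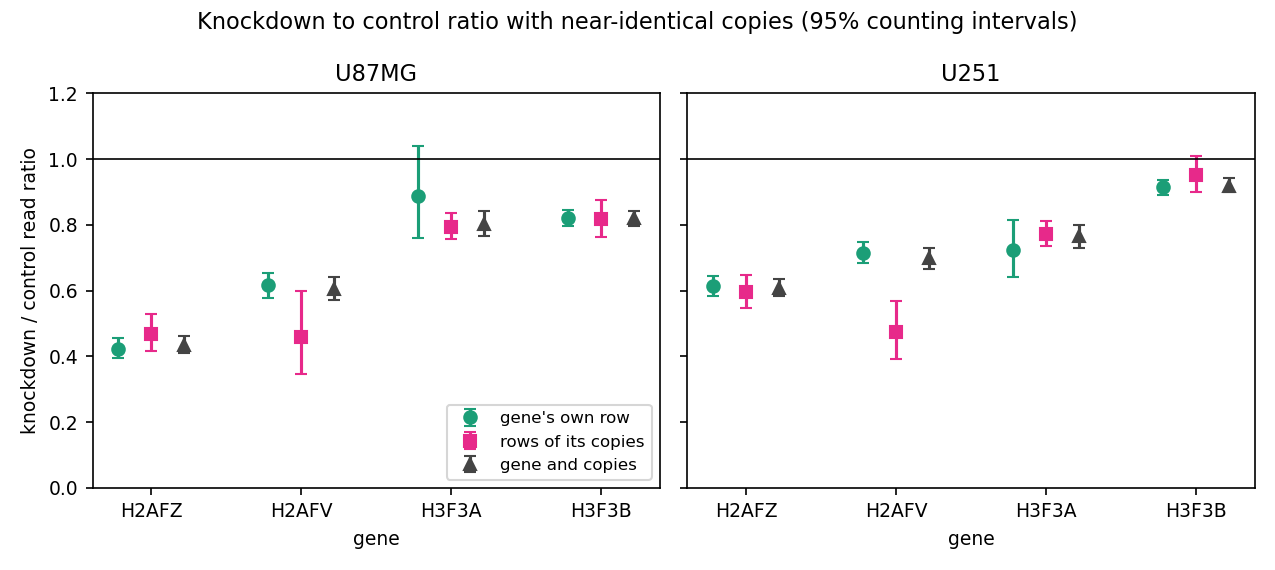
Knockdown to control ratio of reads per library size in U87MG (left) and U251 (right) for 4 variant genes, from the gene's own row (circles), the rows of its near-identical copies (squares) and both together (triangles), with 95% counting intervals. For H3F3A in U87MG the gene's own row gives 0.888 and gene with copies 0.803, while the H2AFZ values stay between 0.424 and 0.469.

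Of the 2 linker histones, H1F0 had the wider gap between the lines. H1F0 on chromosome 22 (chr22:37805093-37807436, forward strand, 1 exon) encodes H1.0. It was at 10.1 RPKM with the control and 11.1 RPKM with the SRSF1 hairpin in U87MG, and correspondingly at 273.9 and 193.2 RPKM in U251, where it was the highest of the 9 variants. Both U251 libraries lay far above both U87MG libraries, 27.1-fold in the controls and 17.4-fold with the knockdown. The knockdown value was higher than the control in U87MG (ratio 1.1, 0.985 to 1.23, an interval that holds 1) and lower in U251 (0.706, 0.689 to 0.722). Across the lines the difference did not pass the test (-0.19 ± 0.19, limma adjusted p = 0.62). H1FX on chromosome 3 (chr3:129314771-129316277, reverse strand, 1 exon) encodes H1.10. H1FX was at 26.1 RPKM (control) and 16.6 RPKM (knockdown) among U87MG libraries, and at 58.5 and 37.8 RPKM among U251 libraries, so that the ratios of 0.635 (0.575 to 0.701) and 0.646 (0.605 to 0.689) were nearly equal. The adjusted p missed the threshold (-0.62 ± 0.16, limma adjusted p = 0.081). H1F0 gave 27.9% and 40.2% of the summed RPKM of these 2 genes in U87MG, and 82.4% and 83.6% in U251.

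Between the lines, U251 held more of nearly every variant. By the genes' own rows, both U251 libraries exceeded both U87MG libraries in 7 of 8 variants tested, against 37.0% of all genes tested. H2AFY was the exception, and the same 7 were called (27.0% of all genes). H1F0 had the widest difference (U87MG minus U251 -4.31 ± 0.19 on the log2(RPKM + 1) scale, limma adjusted p = 3.7e-06). H2AFX followed (-1.43 ± 0.2, adjusted p = 0.00093), then H1FX (-1.14 ± 0.16, adjusted p = 0.00098) and H2AFZ (-0.97 ± 0.18, adjusted p = 0.0037). H2AFV (-0.77), H3F3A (-0.67) and H3F3B (-0.55) were called at adjusted p-values of 0.0065, 0.013 and 0.019. For H2AFY the estimate was -0.22 ± 0.16 (limma adjusted p = 0.28). The median over the 8 variants was -0.87, beside -0.07 for all genes tested. H3F3AP4, the copy with the coding bases of H3F3A, had an estimate of 0.04 ± 0.15 (limma adjusted p = 0.83), and the difference from its parent gene was not tested. The H3F3A row held 359 (control) and 315 reads (knockdown) in U87MG, and 615 and 495 in U251. Its copies held 3617 and 2839 reads in U87MG, and 3364 and 2896 in U251. The H3F3A difference between the lines is therefore uncertain, and it was not tested with the copies added. Without the filter on low genes H2AFZ, H3F3A and H3F3B did not pass (adjusted p 0.055, 0.06 and 0.072), and without the arm in the model H2AFX and H1F0 alone did. With 1 control and 1 knockdown library per line, the residual of a gene is how far its knockdown ratio differs between the lines. These p-values rest on that difference, pooled mainly over all genes, and technical spread cannot be told apart from it.

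**Figure D4:**
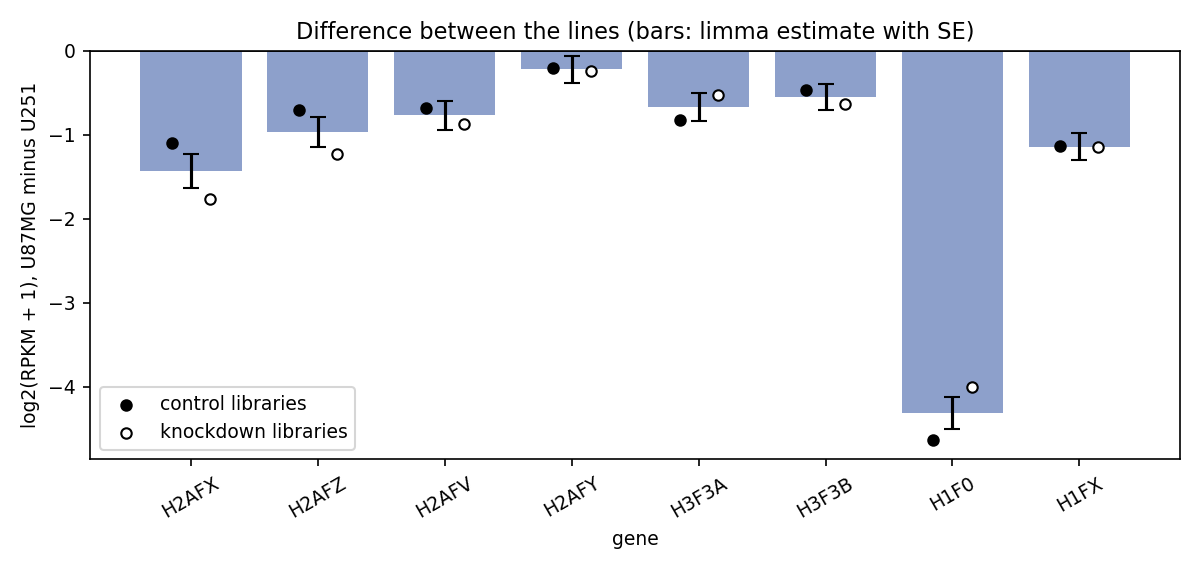
Difference of U87MG minus U251 in log2(RPKM + 1) for the 8 variant genes tested, as the limma estimate (bars) with its SE and as the difference of the control libraries (filled points) and of the knockdown libraries (open points). H1F0 reaches -4.31, and the control and knockdown points of H1FX nearly coincide.

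The order of the levels differed between the lines, most of all for H1F0. In control U87MG cells H3F3B was first, followed by H2AFZ (76.8 RPKM) and H2AFY (49.4 RPKM), while H2AFV, H1FX, H3F3A and H2AFX lay together between 25.2 and 27.6 RPKM. H1F0 came next at 10.1 RPKM, before H2AFY2 at 0. In control U251 cells H1F0 stood before H3F3B and H2AFZ, and H1FX, H2AFY and H2AFX lay together between 55.3 and 58.5 RPKM. H1FX was thus below H2AFY in U87MG and just above it in U251, and H2AFV, above H3F3A and H2AFX in U87MG, was below both in U251 at 44.7 RPKM. Since each value is 1 library, neighbours such as these are not separated by any measure of biological spread. With the knockdown H2AFY was above H2AFZ in U87MG (39.4 against 32.6 RPKM) and below it in U251 (46.7 against 77.5 RPKM).

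Variant histone mRNA can be set beside the replication-dependent histone mRNA that a poly(A) library holds, which is the small share of it with a tail. The 9 variants summed to 373.4 RPKM in control and 260.4 RPKM in knockdown U87MG cells, and to 846.4 and 633.5 RPKM in U251. The summed RPKM of the 68 replication-dependent genes went the other way, with 106.4 RPKM in control and 246.6 RPKM in knockdown U87MG cells, and 81.0 and 347.1 RPKM in the U251 pair. A few genes made up much of this sum: HIST1H2BK alone was at 22.7 RPKM in control and 97.7 RPKM in knockdown U87MG cells. Of these genes 36 were tested, of which 10 were lower in knockdown U87MG cells and 4 in knockdown U251 cells. Their median log2 ratios were 0.44 in U87MG and 0.81 in U251, beside -0.05 and 0.0 for all genes tested. The 68 genes include families that have none of the 9 variants, such as H2B with HIST1H2BK. With those families in the total, the variants' part was 77.8% in control and 51.4% in knockdown U87MG cells, and 91.3% and 64.6% in U251. Among H2A genes their part was 84.8% and 62.1% in U87MG, and 92.0% and 63.0% in U251. The H3 family differed from this: H3F3A and H3F3B gave 93.7% to 97.4% of it in all 4 libraries. Among linker histones the part of H1F0 and H1FX went from 58.8% to 41.8% in U87MG and from 94.4% to 74.9% in U251. By the test across the lines 13 of the 36 rose and 0 fell, against 1.16% and 2.61% of all genes. At an unadjusted limma p under 0.05, 18 were higher and 1 was lower, against 8.29% and 12.8%. HIST1H2BK (2.14 ± 0.16, limma adjusted p = 0.0045) and HIST1H2AC (2.37 ± 0.26, adjusted p = 0.01) were among those that rose. H2BFS, another histone gene outside the replication-dependent list, was at 0.301 (control) and 2.64 RPKM (knockdown) for U87MG and at 0.21 and 0.661 RPKM for U251, and did not pass (adjusted p = 0.11). Of 13 other histone genes, listed here as less common variants, 2 were tested (H2BFS and H3F3C) and neither was called. H2BFS alone was higher at an unadjusted limma p under 0.05. Whether H2BFS shares reads with replication-dependent histone genes was not examined.

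**Figure D5:**
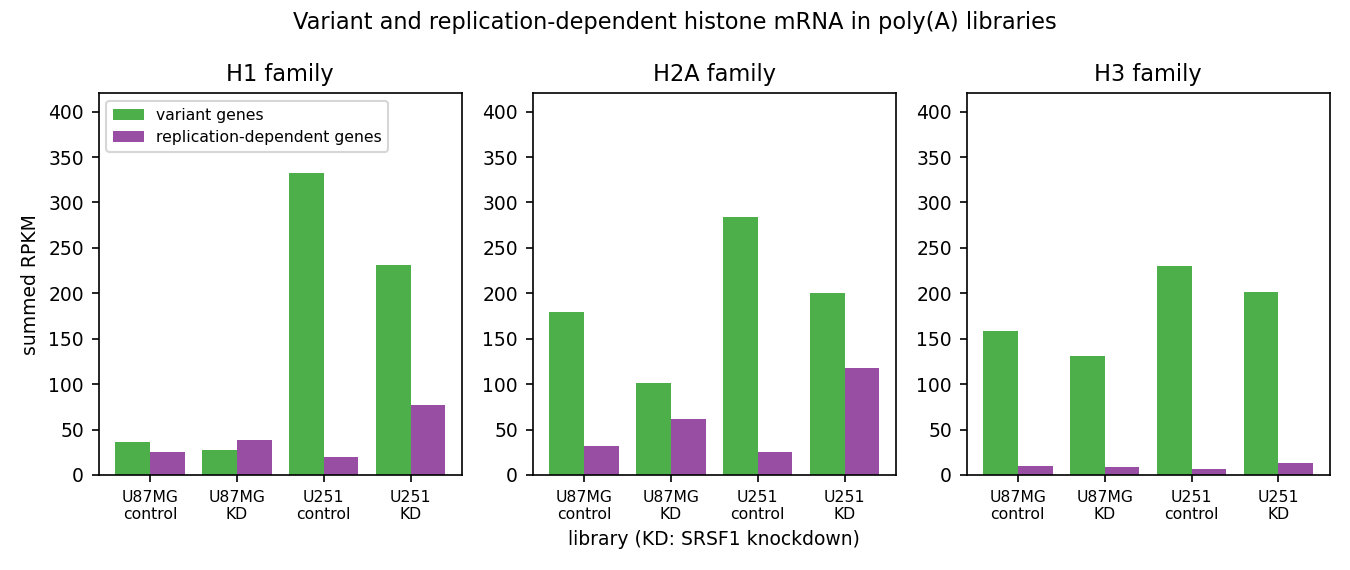
Summed RPKM of variant genes (green) and of replication-dependent genes (purple) in the H1, H2A and H3 families in each library. Replication-dependent H2A mRNA is higher in both knockdown libraries (61.7 against 32.2 RPKM in U87MG and 118.0 against 24.8 RPKM in U251), whereas the H3 variants stand between 131.5 and 230.2 RPKM and the replication-dependent H3 genes at no more than 12.7 RPKM.

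No listed gene of H2A.Z exchange and removal or of H3.3 deposition passed the test. For lists this short that is near the share of all genes. Over all genes tested, 2.61% were called lower and 1.16% higher, and 12.8% and 8.29% were lower and higher at an unadjusted p under 0.05. Of the 31 genes of H2A.Z exchange and removal, all tested, 0 were called by limma in either direction (6 lower and 2 higher at an unadjusted p under 0.05), with median log2 ratios of -0.25 in U87MG and -0.02 in U251. ANP32E, a chaperone that removes H2A.Z, was at 41.8 RPKM with the control and 26.0 RPKM with the SRSF1 hairpin in U87MG, and correspondingly at 160.5 and 117.8 RPKM in U251 (-0.56 ± 0.16, limma adjusted p = 0.11). ZNHIT1, a subunit of the SRCAP complex, was at 21.7 and 35.1 RPKM, and at 33.2 and 49.7 RPKM (0.62 ± 0.16, adjusted p = 0.083), higher in both knockdown libraries. Among 8 genes of H3.3 deposition 0 were called by limma, also at an unadjusted p under 0.05 (medians -0.09 and 0.22). DEK, which binds H3.3, had an estimate of -0.38 (limma adjusted p = 0.24), and UBN1, a subunit of the HIRA complex, had 0.19 (0.58).

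Of 13 replication-coupled and general histone chaperones, 2 fell and 0 rose (against 2.61% and 1.16% of all genes; 7 and 0 at an unadjusted limma p under 0.05, against 12.8% and 8.29%; medians -0.74 and -0.11). These were CHAF1B, a subunit of the chromatin assembly factor at the replication fork (-1.36 ± 0.18, limma adjusted p = 0.015), and ASF1B, an H3-H4 chaperone of dividing cells (-1.19 ± 0.21, adjusted p = 0.029). Among the kinases, phosphatases and readers of H2A.X, 16 of 18 were tested, and 1 fell and 0 rose (5 and 0 unadjusted, medians -0.32 and -0.05): BRCA1, which acts in recombination repair, was at 18.5 RPKM (control) and 4.83 RPKM (knockdown) among U87MG libraries, and at 29.0 and 14.0 RPKM among U251 libraries (-1.37 ± 0.21, adjusted p = 0.021). For the centromeric variant, 7 of 8 genes were found and tested, of which 3 fell and 0 rose (6 and 0 unadjusted, medians -1.22 and -0.46). Among them CENPA, the centromeric H3 itself, fell by 1.12 ± 0.17 (limma adjusted p = 0.021) and its chaperone HJURP fell by 1.45 ± 0.2 (0.019). With trimmed-mean rescaling CHAF1B still passed (0.045), and ASF1B (0.064), BRCA1 (0.053), CENPA (0.051) and HJURP (0.05) did not.

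Among the 20 proliferation genes 13 fell and 0 rose (against 2.61% and 1.16% of all genes). At an unadjusted limma p under 0.05, 19 were lower and 0 higher (against 12.8% and 8.29%). Their median log2 ratios were -1.45 in U87MG and -0.75 in U251. MKI67, the marker of cycling cells, was at 91.1 (control) and 20.2 RPKM (knockdown) for U87MG and at 124.4 and 47.6 RPKM for U251. RRM2, the small subunit of ribonucleotide reductase, was at 113.1 and 18.2 RPKM, and at 170.9 and 66.2 RPKM. With trimmed-mean rescaling MKI67 (limma adjusted p = 0.04) and CCNE2 (0.03) passed, and RRM2 (0.051) and CDC20 (0.071) did not. MKI67 and RRM2 were lower with the knockdown in each line, as were 7 of the 8 variants tested, all but H1F0 (36.5% of all genes). Whether these changes are linked was not tested.

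Genes with the pattern closest to a variant were taken by the Euclidean distance of log2(RPKM + 1) over the 4 libraries, each centred on its mean, among 7665 protein-coding genes. For H2AFX this was SHCBP1 at a distance of 0.043, with 39.8 and 19.0 RPKM in U87MG and 86.8 and 66.8 RPKM in U251, and then DTX3L at 0.102. For H2AFZ the closest were PRR11 (0.0652) and HNRNPH1 (0.0816), the latter at 297.3 RPKM with the control and 124.9 RPKM with the SRSF1 hairpin in U87MG, and correspondingly at 511.8 and 310.0 RPKM in U251. H2AFV had CMC4 (0.0618) and ATRN (0.0762) nearest to it, and H1FX had SKIL (0.111) and MOV10 (0.113). H1F0 had no gene as close: NNT (0.261) had 0.0488 and 0.0658 RPKM in U87MG but 20.0 and 13.9 RPKM in U251, and NID1 followed at 0.288. Over 4 libraries such likeness is a description of these samples.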

How the data were processed

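Poly(A) RNA of U87MG and U251 cells with sh-NC or sh-SRSF1 was sequenced paired-end, 1 library per line and arm, and groups were taken from the titles. The deposited values are RPKM per gene, which the authors had scaled to model length and library. Alignment used Bowtie 0.12.2 and hg19, per the submitters' processing notes; how reads were counted, with which annotation and strand setting, is not given in the sources used here. The 9 members and the 8 gene lists were chosen with earlier results of these data known.

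Ratios used log2(RPKM + 1). Genes with at least 1 RPKM in at least 1 library (16098) were fitted in limma 3.58.1 (R 4.3.3) with cell line and arm as terms, an intensity trend in eBayes and Benjamini-Hochberg adjustment over all of them, two-sided, called under 0.05. This leaves 1 residual degree of freedom, and the test rests mainly on variance pooled over genes. Within a line there is no test. Whether the libraries are separate infections is not stated, so p-values cover only these libraries. Their residual spread is the difference of the knockdown ratio between the lines. Relative depth was taken from low RPKM values, which step by the value of 1 read, and read numbers are the smallest that also give a whole gene model length; true numbers may be a multiple. Over 6012 genes 93.8% gave a whole length. Counting intervals are exact 95% Clopper-Pearson intervals. The fit was tested on simulated data.

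Each list names the genes that passed, up to 4, or else up to 2 with the largest mean ratio; 1 gene that the rule names is not reported here. Positions and transcripts are from GENCODE on GRCh38 and promoters from RefSeq on GRCh38.p14; nothing was converted to hg19. Pseudocount, filter, rescaling, trend and design alternatives were tried.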

Additional observations from a re-analysis of the deposited data

Results flagged for a closer look

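H1F0 lay on opposite sides of its control in the 2 lines, with a log2 ratio of 0.13 in U87MG and -0.5 in U251. The difference between the lines was not tested, since each line has 1 library per arm, and the counting interval of the U87MG ratio holds 1.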

How the results depend on the processing

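Among alternative fits and scalings, 0 of the results reversed. Knockdown results of single variants kept their side of the threshold in 44 of 48 alternative fits, and those between the lines in 40 of 48. All 4 knockdown exceptions are H2AFZ, so the number of variants called lower went from 1 to 0 without the filter, with trimmed-mean rescaling, with only the tested term in the design and without the trend. Over all genes, 420 were called lower and 186 higher; this became 52 and 48 with trimmed-mean rescaling, 172 and 88 without the trend, and 513 and 315 with quantile normalization, so that the split between lower and higher depends on the scaling. It became 0 and 0 without the filter (1890 lower and 1234 higher at an unadjusted limma p under 0.05) and 0 and 0 with only the tested term, which leaves out the cell line as a block (183 and 79 unadjusted). Between the lines, genes called lower and higher in U87MG went from 4347 and 3482 to 2430 and 1856 without the filter and to 2482 and 1960 with only the tested term, and variants called lower from 7 to 2 with only the tested term. Without the filter, 5 variants were called there, H2AFY2 among them. Quantile normalization moved the H3F3A share of H3.3 in U251 controls to 18.7%, the H2AFZ share of H2A.Z there to 74.9%, and the H1F0 share to 83.7% in control and 84.7% in knockdown U251 cells. Of 56 alternative ratios within a line 6 moved beyond counting error, among them H2AFY in U87MG (-0.23 with trimmed-mean rescaling), and adding the reads of near-identical copies, an alternative chosen after seeing the data, moved none beyond it. The cause of these shifts was not tested. The labels carry no replicate numbers; knockdown and control libraries are paired by cell line in the model. Leaving out a library leaves no residual degree of freedom and was not run. Depth limits H2AFY2, which had at most 45 reads, and the read numbers of H3F3A.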
